A study of Mus musculus with 4 samples.

Results

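The regulators of G protein signalling (RGS) examined here are 7 genes, Rgs1, Rgs2, Rgs3, Rgs10, Rgs14, Rgs16 and Rgs19, chosen by name for how their array values lay at baseline, after 2 h and after 8 h of interferon alpha (IFNa), with the chromosomal neighbours Rgs1 and Rgs2 set against the others. Of these, 6 had a row that named them alone among 19752 genes on the array, and Rgs10 had none, so it has no value. Because the choice used these same values, the levels and differences of the RGS genes are a description and carry no test. The samples were splenic CD4+ T cells of male C57BL/6 mice aged 6 weeks, purified by removing the other cell types and activated for 48 h with beads that bind CD3 and CD28. Untreated baseline cells were on 2 arrays, cells given IFNa at 100 U/ml for 2 h on 1 array and cells given it for 8 h on 1 array. All groups shared the strain, sex, age and bead activation. The preparation label of the IFNa samples also mentions JAK inhibitors with a plus or minus sign, while their other labels name only IFNa. Whether the baseline arrays hold separate mice is not given in the labels, and each IFNa time has 1 array. The spread is therefore that of 2 arrays and may be technical, and the lone arrays are assumed to vary as those do. With no untreated array at 2 h or 8 h among those used, the effects of IFNa and of time in culture cannot be told apart.

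G protein-coupled receptors act by loading GTP onto the alpha subunit of a heterotrimeric G protein, which then separates from its beta and gamma subunits. RGS proteins bind the active alpha subunit through a shared domain and speed its return to the inactive form, which shortens the signal. In lymphocytes they are best known for limiting the response to chemokines and other migration cues, most of which act through alpha subunits of the Gi class. Type I interferon itself signals through Janus kinases and STAT factors, not through G proteins.

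Rgs1 is a lymphocyte RGS protein that restrains chemokine-driven migration. Its log2 intensity was 9.46 and 9.67 at baseline, then 10.94 at 2 h and 9.20 at 8 h. The 2 h array lay above both baseline arrays and the 8 h array below both, an arrangement found in 28.6% of tested genes. The 2 h value was 2.60 times the baseline mean (log2 difference 1.38, SE 0.21), and the 8 h difference was −0.36 (SE 0.21). SE here is the moderated standard error of a model fitted to all tested genes, with 1 IFNa array against 2 baseline arrays.

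Rgs2, which prefers alpha subunits of the Gq class and is switched on early in many stimulated cells, had log2 intensities of 7.57 and 6.998 at baseline, then 8.93 at 2 h and 7.43 at 8 h. The 2 h array again stood clear of the others, and the 8 h array lay between the 2 baseline arrays. The 2 h value was 3.13 times the baseline mean (log2 difference 1.65, SE 0.26) and the 8 h difference was 0.14 (SE 0.26). The sign of the 8 h difference turned after quantile normalization (−0.01) and without baseline replicate 2 (−0.14). Its baseline arrays lay further apart than those of the other RGS genes, with an SD of 0.41 on the log2 scale (n = 2), and its 2 h difference was 1.36 without baseline replicate 2 and 1.93 without baseline replicate 1. At baseline and at 8 h, Rgs2 lay in the dimmer part of the array, below its median. It passed the filter on dim genes only through the 2 h array, where it was high, so its presence among the tested genes already required a difference.

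Between 2 h and 8 h, Rgs1 and Rgs2 differed by similar amounts. For Rgs1 the log2 difference of 8 h minus 2 h was −1.74 (SE 0.24, 1 array each). For Rgs2 the same difference was −1.50 (SE 0.30). The median of all tested genes was 0.06 for 2 h minus baseline, −0.16 for 8 h minus baseline and −0.25 for 8 h minus 2 h, and became −0.01, −0.0020 and 0.0024 after quantile normalization. There the 8 h minus baseline difference of Rgs1 was −0.08, against −0.36 in the deposited values.

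Rgs16, an RGS protein of activated T cells that acts on Gi and Gq alpha subunits, followed the same course at a smaller size. It had log2 intensities of 8.45 and 8.43 at baseline, then 9.32 at 2 h and 8.56 at 8 h. The baseline arrays nearly coincided (SD 0.02, n = 2), and both IFNa arrays lay above them. The 2 h value was 1.84 times the baseline mean (log2 difference 0.88, SE 0.20), and the 8 h difference was 0.12 (SE 0.20), or 0.36 after quantile normalization. Its 8 h minus 2 h difference was −0.76 (SE 0.23), or −0.38 after quantile normalization.

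The promoters of Rgs2 and Rgs16 are shown because both genes were high at 2 h and near baseline at 8 h. Of the 7 genes, 5 had a promoter window in the RefSeq table (build GRCm38.p6, 250 bases before to 50 after the start). Rgs1 and Rgs14 had none. The window of Rgs2 is chr1:144004100-144004399 on the minus strand, and that of Rgs16 is chr1:153740103-153740402 on the plus strand. Capitals mark CGTCA or its reverse complement TGACG, the core bound by CREB and ATF factors, and CCAAT or its reverse complement ATTGG, the box bound by NF-Y.
Rgs2: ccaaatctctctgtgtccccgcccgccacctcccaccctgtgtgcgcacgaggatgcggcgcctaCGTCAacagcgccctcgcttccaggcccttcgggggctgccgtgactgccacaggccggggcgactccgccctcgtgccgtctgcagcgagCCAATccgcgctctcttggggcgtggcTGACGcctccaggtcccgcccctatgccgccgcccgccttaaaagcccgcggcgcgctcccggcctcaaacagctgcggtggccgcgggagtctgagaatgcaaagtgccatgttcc
Rgs16: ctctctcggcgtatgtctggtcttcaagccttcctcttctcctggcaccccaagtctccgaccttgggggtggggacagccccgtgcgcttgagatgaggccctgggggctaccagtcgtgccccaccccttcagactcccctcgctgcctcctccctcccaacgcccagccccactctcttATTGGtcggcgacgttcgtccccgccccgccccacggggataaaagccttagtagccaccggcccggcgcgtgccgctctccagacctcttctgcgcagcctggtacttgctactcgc
The Rgs2 window held CGTCA 185 bases before the start and TGACG 67 bases before it, with CCAAT between them at 94 bases before. The Rgs16 window held ATTGG at 68 bases before the start. CGTCA on either strand occurred in 20.8% of all 32851 windows and CCAAT in 37.4%. Neither window held the core of the interferon-stimulated response element, which is GAAA, any 2 bases and GAAA again (3.44% of windows), TTCNNNGAA, the gamma-activated sequence bound by STAT dimers (8.30%), or TATAAA, the consensus of the TATA box (13.6%), on either strand. These motifs did not overlap each other in the Rgs2 and Rgs16 windows. No window of Rgs3, Rgs10 or Rgs19 held the core of the interferon-stimulated response element or the gamma-activated sequence. Of the 8 interferon response genes listed below that had a window, 5 held that core in any of their windows. By the same count 3 held the core bound by CREB and ATF factors and 0 the gamma-activated sequence. The shares above are per window and not per gene. A match is a run of letters and not a measured site.

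**Figure D1:**
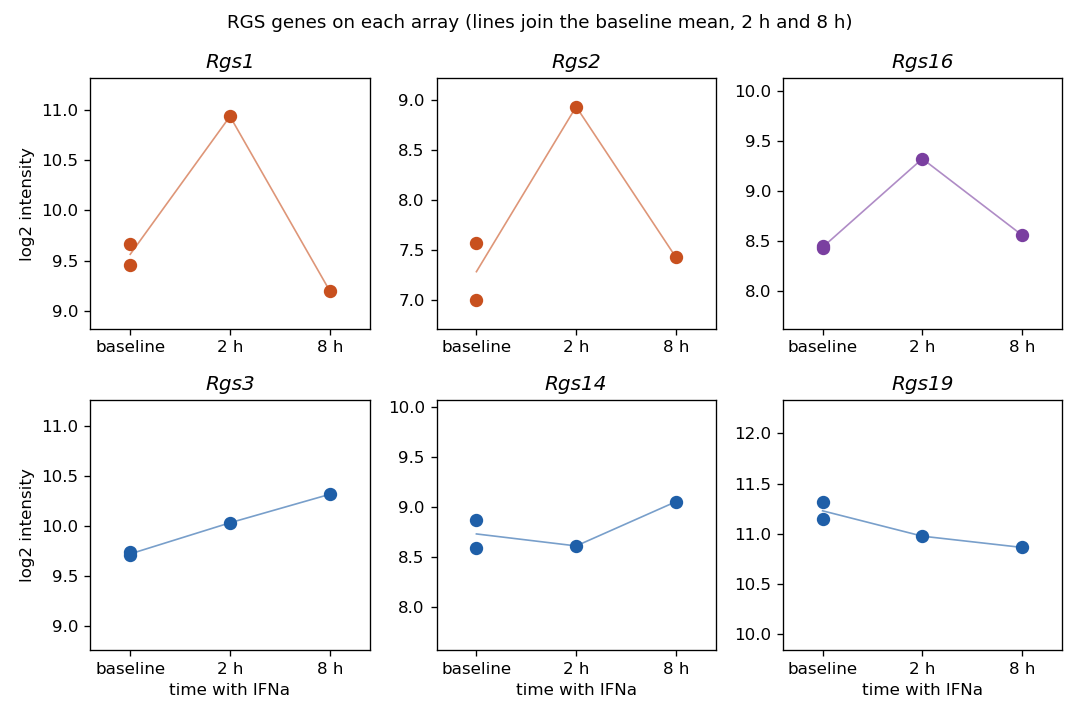
Log2 intensity of the 6 RGS genes with a row of their own on each array (y axis, all panels spanning the same range) against time with IFNa (x axis). Points are single arrays, 2 at baseline, 1 at 2 h and 1 at 8 h, and lines join the baseline mean to the later arrays. Rgs1, Rgs2 and Rgs16 peak at 2 h, while Rgs3 is highest at 8 h and Rgs19 lowest there.

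Rgs3, a larger RGS protein that acts on Gi and Gq alpha subunits, had its highest value at 8 h. On the row with the higher mean, its log2 intensity was 9.71 and 9.74 at baseline, then 10.03 at 2 h and 10.32 at 8 h. Both IFNa arrays lay above both baseline arrays. The difference from baseline was 0.31 (SE 0.20) at 2 h and 0.59 (SE 0.20) at 8 h. Rgs3 had 2 rows, and they disagreed. The other row had 8.56 and 8.91 at baseline, then 8.51 at 2 h and 8.71 at 8 h, and gave differences of −0.22 and −0.02, so the direction for Rgs3 depends on which row is taken.

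Rgs14, which binds inactive as well as active Gi alpha subunits, had log2 intensities of 8.59 and 8.87 at baseline, then 8.61 at 2 h and 9.05 at 8 h. The 2 h array lay between the baseline arrays and the 8 h array above both. The differences from baseline were −0.12 (SE 0.22) at 2 h and 0.32 (SE 0.22) at 8 h. The 2 h difference turned to 0.02 without baseline replicate 2.

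Rgs19, a Gi-directed RGS protein also known as GAIP, was the one gene that lay below both baseline arrays at both times. Its log2 intensity was 11.14 and 11.31 at baseline, then 10.97 at 2 h and 10.86 at 8 h. The differences from baseline were −0.25 (SE 0.21) at 2 h and −0.37 (SE 0.21) at 8 h. Its 8 h minus 2 h difference of −0.11 turned to 0.14 after quantile normalization.

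Ordered by level, the groups fell in different sequences for the 6 genes. For Rgs1, Rgs2 and Rgs16 the 2 h array was highest, and the 8 h array and the baseline mean were neighbours, closest for Rgs16 and Rgs2. For Rgs3 the order from the highest was 8 h, 2 h and baseline, with 0.28 between 8 h and 2 h (SE 0.23), 0.31 between 2 h and baseline (SE 0.20) and 0.59 between 8 h and baseline (SE 0.20). For Rgs19 it was baseline, 2 h and 8 h, with all differences between −0.37 and −0.11. For Rgs14 the 8 h array was highest, 0.44 above the 2 h array (SE 0.25), and the 2 h array differed from the baseline mean by −0.12.

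At 2 h, 4 of the 6 genes lay above both baseline arrays, namely Rgs1, Rgs2, Rgs3 and Rgs16, where 44.5% of all tested genes did so. Rgs19 lay below both, as did 33% of tested genes. Rgs1 and Rgs2 were at least 2-fold higher than baseline, against 1.77% of the 10699 tested genes, and the same 2 genes passed the limma threshold (adjusted p under 0.05) in the higher direction, against 1.09%. Calls in the lower direction made up 0.00935% of tested genes and all calls 1.1%, or 118 genes (117 higher and 1 lower), which became 441 (332 higher and 109 lower) after quantile normalization. Since the genes were chosen on this contrast, nothing is read from these counts. By size of the 2 h difference Rgs2 stood 44th, Rgs1 82nd and Rgs16 252nd among all tested genes. These places describe the values the genes were chosen on, and nothing is read from them either. Rgs2 was tested only through its high 2 h array, which already required a high place.

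At 8 h, Rgs3, Rgs14 and Rgs16 lay above both baseline arrays, as did 24.4% of tested genes. Rgs1 and Rgs19 lay below both, as did 55.9%. None of the 6 RGS genes was 2-fold different from baseline, against 3.17% of tested genes, and limma called none of the 6, against 4% (0.654% higher and 3.35% lower). Those were 428 genes, 70 higher and 358 lower, and after quantile normalization 1566, of which 665 were higher and 901 lower. From 2 h to 8 h, Rgs1 and Rgs2 were at least 2-fold lower, against 8.65% of tested genes, and limma called the same 2 lower, against 10.8% (1.46% were higher and 12.3% were called in all). As the genes were chosen on these contrasts too, nothing is read from the counts. The median difference of the 6 genes was 0.60 at 2 h and 0.13 at 8 h.

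The contrast of Rgs1 and Rgs2 with the other 4 measured genes follows from these values. At 2 h the neighbours averaged a log2 difference of 1.51 and the others 0.21, with the others running from −0.25 for Rgs19 to 0.88 for Rgs16. The gap of 1.31 compares with a shift of −0.30 in the same contrast between baseline replicate 2 and baseline replicate 1. In that shift Rgs1 (0.21) and Rgs2 (−0.58) moved in opposite directions and partly cancelled, so it understates the baseline spread of the single genes. At 8 h the neighbours averaged −0.11 and the others 0.17, a gap of −0.28, which is no larger than that shift. From 2 h to 8 h the gap was −1.59. The other genes were not of one kind, since without Rgs16 they averaged −0.02 at 2 h and the gap was 1.53.

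**Figure D2:**
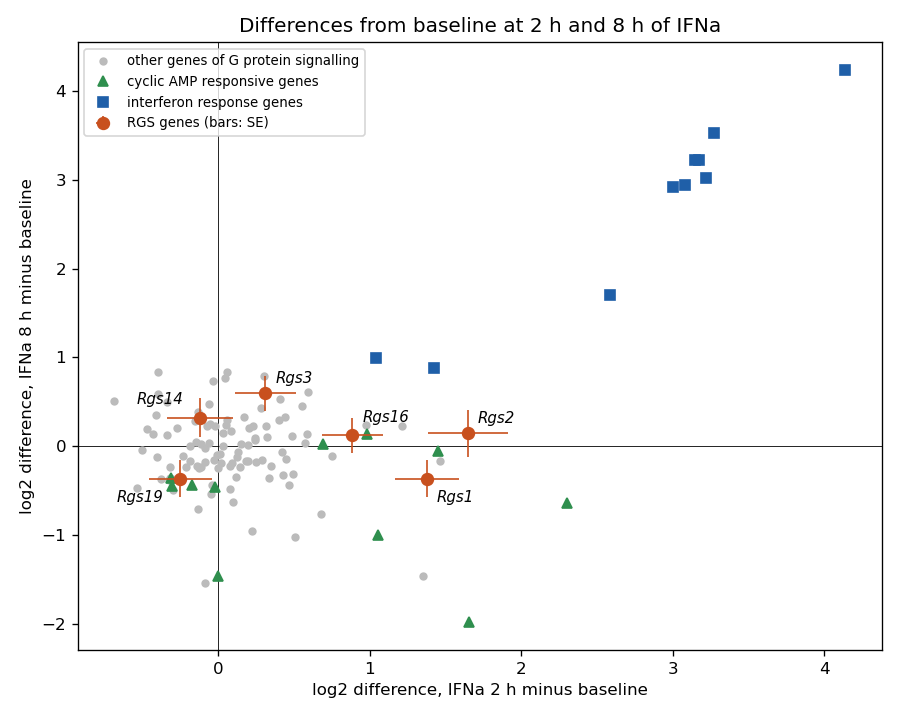
Log2 difference from baseline at 2 h (x axis) and at 8 h (y axis) for the 6 RGS genes (orange, bars are SE), for tested interferon response genes (blue squares), cyclic AMP responsive genes (green triangles) and other genes of G protein signalling (grey). Both axes use the same 2 baseline arrays. Rgs1, Rgs2 and Rgs16 lie to the right near a y value of 0, whereas the interferon response genes lie high on both axes. The RGS genes were chosen on these values.

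Interferon response genes were high at both times. Of 12 listed genes 10 were tested, and limma called 9 higher at 2 h and 9 higher at 8 h, with medians of 3.12 and 2.99. Over all tested genes 1.09% were called higher at 2 h and 0.654% at 8 h. Of the 10, 5 (Rtp4, Ifit3, Mx1, Oasl2 and Rsad2) lay under the median on both baseline arrays and entered the test only through the IFNa arrays, where they were high. With no filter on dim genes 8 were called at each time. Rtp4, an interferon-induced antiviral protein, rose by a log2 difference of 4.14 (SE 0.21, adjusted p = 0.000281) at 2 h and 4.24 (SE 0.21, adjusted p = 0.000232) at 8 h. From 2 h to 8 h limma called none of the 10, against 12.3% of all tested genes. The differences of the 10 ran from −0.88 for Mx1 to 0.26 for Ifit3. On the same scale Rgs1 stood at −1.74 and Rgs2 at −1.50, where 8.65% of all tested genes were at least 2-fold lower. Rgs1 and Rgs2 were chosen on these values, so nothing is read from their distance from the interferon response genes.

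Rgs1 and Rgs2 lie in a group of RGS genes on chromosome 1. In the RefSeq gene order the run is Rgs2, Rgs13, Rgs1, Rgs21 and Rgs18, with Uchl5, Ro60, Glrx2, B3galt2 and Cdc73 on the far side of Rgs2. All 8 other protein-coding genes within 1 Mb had a row, and their 2 h differences ran from −0.33 to 0.34. None was 2-fold higher, where 1.77% of all tested genes were, so none of 8 is near that share. Rgs1 and Rgs2 were chosen on these values, so their distance from the flanking genes is not read as a result. Rgs13, which lies between Rgs1 and Rgs2 and is known from germinal centre B cells, had log2 intensities of 4.64 and 4.65 at baseline, then 4.38 at 2 h and 4.46 at 8 h. Rgs18, known from platelets, had 6.65 and 6.66 at baseline, then 6.71 at 2 h and 6.65 at 8 h, and Rgs21 lay between 4.28 and 4.53 on all arrays. These 3 genes were under the array median throughout.

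Of the 8 flanking genes, 4 were bright enough to test. Limma called none at 2 h, where 1.1% of all tested genes were called, and 3.35% were called lower at 8 h. Uchl5, a deubiquitinase of the proteasome, fell at 8 h by a log2 difference of −0.91 (SE 0.20, adjusted p = 0.0480), a call that ended with no filter on dim genes or a stricter one (adjusted p up to 0.103). Cdc73, a subunit of the transcription-associated PAF complex, stood at 0.34 (SE 0.20, adjusted p = 0.522) at 2 h and −0.48 (SE 0.20, adjusted p = 0.191) at 8 h. Glrx2, a mitochondrial glutaredoxin, stood at −0.15 and −0.46, and Ro60, an RNA-binding autoantigen, at 0.23 and −0.34, none of them called. B3galt2, a galactosyltransferase, was under the array median throughout.

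**Figure D3:**
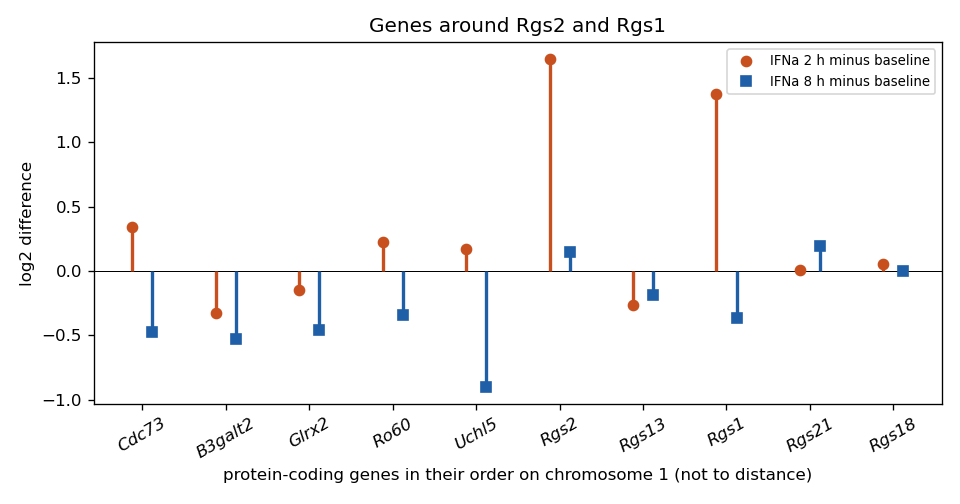
Log2 difference from baseline at 2 h (orange circles) and 8 h (blue squares) for the 10 protein-coding genes around Rgs2 and Rgs1, in their order on chromosome 1 and not to distance. Lines run from 0 to each value. Only Rgs2 and Rgs1, chosen on these values, exceed a 2 h difference of 1 among these 10, against 1.77% of all tested genes. Rgs13 between them stands at −0.27.

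The rest of the RGS family was faint in these cells. All 14 other listed RGS genes had a row, and only Rgs12 was above the median of an array. The remaining 13, Rgs4 to Rgs9, Rgs11, Rgs13, Rgs17, Rgs18 and Rgs20 to Rgs22, ran from 4.28 to 7.54 on the log2 scale, and their differences from −0.61 (Rgs11) to 0.09 (Rgs9) at 2 h and from −0.37 to 0.33 at 8 h. Rgs12, a large RGS protein of the same subfamily as Rgs10 and Rgs14, stood at −0.09 (SE 0.20, adjusted p = 0.877) at 2 h and −0.18 (SE 0.20, adjusted p = 0.605) at 8 h. Genes for other proteins with an RGS-like domain, such as receptor kinases and axins, were listed too. Limma called none of the 11 tested, against 1.1% of all tested genes at 2 h and 4% at 8 h. The largest differences in that list were those of the sorting nexins Snx25 (−0.54, SE 0.21, adjusted p = 0.162) and Snx14 (−0.50, SE 0.20, adjusted p = 0.184) at 8 h.

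The targets of RGS proteins are the alpha subunits. Of 7 tested, none was called at 2 h, against 1.1% of all tested genes. At 8 h 1 fell, where 3.35% of all tested genes fell. Gnaq, the Gq alpha subunit on which Rgs2 acts, had log2 intensities of 8.45 and 8.66 at baseline, then 9.06 at 2 h and 7.53 at 8 h. It fell at 8 h by a log2 difference of −1.02 (SE 0.21, adjusted p = 0.0388), a call that ended with no filter on dim genes or a stricter one (adjusted p up to 0.0841), and its 8 h value was also lower than its 2 h value (−1.52, SE 0.24, adjusted p = 0.0136). The main lymphocyte Gi subunit, Gnai2, stood at −0.09 (SE 0.20) at 2 h and −0.02 (SE 0.20) at 8 h. Limma called none of 11 tested beta and gamma subunits, against 1.1% of all tested genes at 2 h and 4% at 8 h. The largest differences were those of Gng4 (0.83, SE 0.20, adjusted p = 0.0602) and Gnb5 (−0.71, SE 0.20, adjusted p = 0.0891) at 8 h.

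Among receptors, a few were high at 2 h as Rgs1 and Rgs2 were. Of 17 tested Gi-coupled lymphocyte receptors, 2 rose at 2 h and 1 fell at 8 h, with medians of 0.15 and 0.22 against 0.06 and −0.16 over all tested genes, of which 1.09% were called higher at 2 h and 3.35% lower at 8 h. Ccr8, a chemokine receptor of activated and regulatory T cells, had 10.18 and 10.26 at baseline, then 11.57 at 2 h and 8.75 at 8 h on the log2 scale. It rose at 2 h (1.35, SE 0.20, adjusted p = 0.0183) and fell at 8 h (−1.46, SE 0.20, adjusted p = 0.00983). P2ry14, the receptor for UDP-glucose, rose at 2 h (1.21, SE 0.21, adjusted p = 0.0342), a call that ended with no filter on dim genes or a stricter one (adjusted p up to 0.0752). P2ry14, Cxcr5 and Ccr10 lay under the median on both baseline arrays and entered the test only through the IFNa arrays. The list medians may therefore be partly set by the filter. Cxcr4, the receptor for Cxcl12, stood at 0.97 (SE 0.21, adjusted p = 0.0807) at 2 h and was not called.

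Of 14 tested receptors in a list of other lymphocyte G protein-coupled receptors, 1 rose at 2 h and 1 fell at 8 h, where 1.09% and 3.35% of all tested genes did. Gpr65, a proton-sensing receptor that raises cyclic AMP, had 8.19 and 7.98 at baseline, then 9.55 at 2 h and 7.92 at 8 h. It rose at 2 h (1.47, SE 0.21, adjusted p = 0.0155). Ptger4, a receptor for prostaglandin E2, fell at 8 h (−0.96, SE 0.21, adjusted p = 0.0436), a call that ended with no filter on dim genes or a stricter one (adjusted p up to 0.0952).

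Among 10 tested arrestins and other handlers of G proteins there was no call against baseline. Over all tested genes 1.1% were called at 2 h and 4% at 8 h. Gpsm3, which like Rgs14 binds inactive Gi alpha subunits, stood at −0.69 (SE 0.20, adjusted p = 0.233) at 2 h and 0.50 (SE 0.20, adjusted p = 0.179) at 8 h, and its 8 h value was higher than its 2 h value (1.19, SE 0.24, adjusted p = 0.0230). Arrb2, the arrestin that uncouples many receptors, stood at −0.44 (SE 0.21, adjusted p = 0.463) at 2 h. Of 28 tested effectors, such as adenylyl cyclases, phospholipases and protein kinase A subunits, none was called at 2 h, against 1.1% of all tested genes. At 8 h 1 fell, a share near the 3.35% of all tested genes. That was Prkar2a, a regulatory subunit of protein kinase A (−1.55, SE 0.20, adjusted p = 0.00802).

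Genes known to respond to cyclic AMP often respond to antigen receptor signals as well. Of 11 tested, 3 rose at 2 h and 3 fell at 8 h, with medians of 0.69 and −0.45. Over all tested genes 1.09% rose at 2 h and 3.35% fell at 8 h, with medians of 0.06 and −0.16. Fos lay under the median on both baseline arrays and entered the test only through the 2 h array, where it was high. Its 2 h difference is the list median of 0.69, so that median was partly set by the filter. The risers were the nuclear receptors Nr4a1 (2.30, SE 0.28, adjusted p = 0.00676), Nr4a2 (1.45, SE 0.20, adjusted p = 0.0132) and Nr4a3 (1.66, SE 0.20, adjusted p = 0.00682). They are of 1 family, and the list did not rise as a whole. At 2 h, 6 of the 11 lay above both baseline arrays, against 44.5% of all tested genes. The differences of Cited2 (−0.32), Sik1 (−0.31), Per1 (−0.17), Dusp1 (−0.03) and Nfil3 (−0.003) were negative. At 8 h the genes that fell were Nr4a3 (−1.99, SE 0.20, adjusted p = 0.00239), the repressor Nfil3 (−1.46, SE 0.20, adjusted p = 0.0102) and Crem, a cyclic AMP response modulator (−0.995, SE 0.20, adjusted p = 0.0383). The call of Crem ended with no filter on dim genes or a stricter one (adjusted p up to 0.0830).

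**Figure D4:**
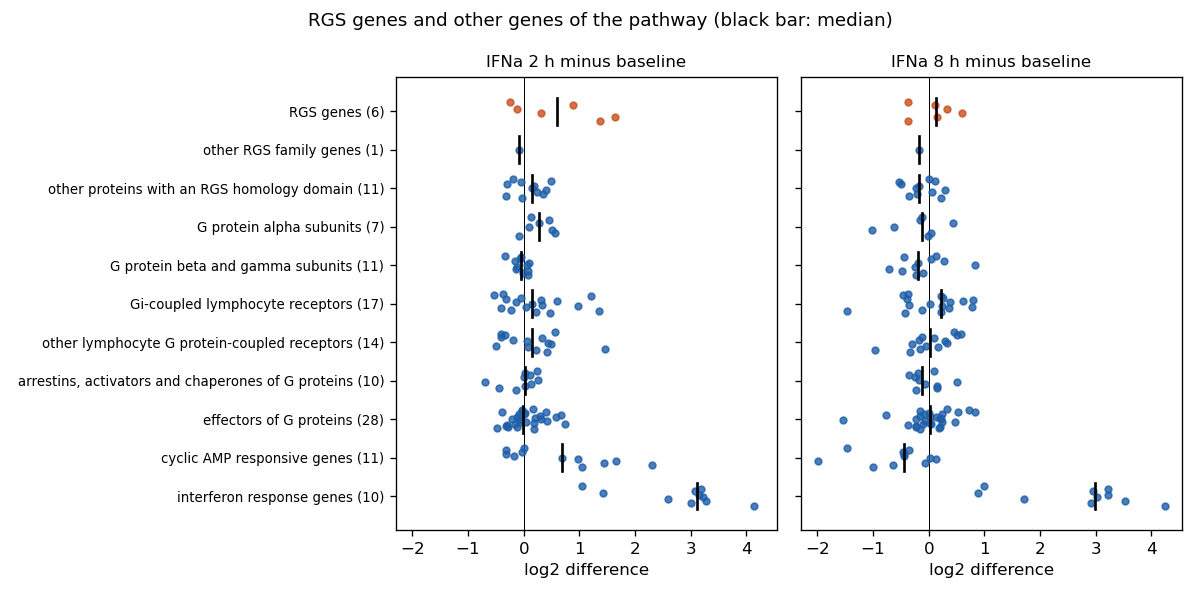
Log2 difference from baseline (x axis) at 2 h (left) and 8 h (right) for the 6 RGS genes (orange) and the tested genes of each list (blue), with the number of genes in brackets. Each point is a gene and each black bar a median. The RGS genes spread from −0.25 to 1.65 at 2 h and from −0.37 to 0.59 at 8 h.

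The genes with the course most like that of Rgs1 and of Rgs2 were found by the Euclidean distance between log2 values on the 4 arrays, each relative to the gene's own baseline mean, over 10698 other tested genes. Nearest to Rgs1 were Hivep1 (distance 0.067), a zinc finger DNA-binding protein, Tnfsf8 (0.125), the ligand of CD30, Tent5a (0.180), Nt5e (0.181), the enzyme CD73 that makes adenosine from AMP, and Stx11 (0.194), a syntaxin of granule release. Hivep1, for instance, had 9.99 and 10.24 at baseline, then 11.43 at 2 h and 9.73 at 8 h. Nearest to Rgs2 were Plagl1 (0.378), a zinc finger factor, Gpr65 (0.438), Klf10 (0.440), a Krüppel-like factor, the metallothionein Mt2 (0.449) and the orphan receptor Gprc5a (0.451). Like Rgs2, Gprc5a entered the tested genes only through the 2 h array, where it was high, so its likeness to Rgs2 was partly set by the filter.

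Rgs1 and Rgs2 were not each other's closest match. Rgs16 stood 228th (distance 0.712) and Rgs2 394th (0.801) in nearness to Rgs1, while Rgs1 stood 48th and Rgs16 70th in nearness to Rgs2. The distance between Rgs1 and Rgs2 includes their baseline arrays, which differed in opposite directions, baseline replicate 2 minus baseline replicate 1 being 0.21 for Rgs1 and −0.58 for Rgs2.

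The labelled cell type was checked against its markers. All 7 T cell markers with a row were above the median on every array, Cd4 and Cd3e among them, and none was called at either time. Marker genes of other cells that could carry RGS transcripts were also measured, in summed linear intensity. The 6 B cell markers with a row summed to 2360 and 2356 at baseline, then 2291 at 2 h and 2981 at 8 h, and Ms4a1, Cd79a, Cd79b and Pax5 were above the median on every array. The sum was highest at 8 h. The 5 macrophage and monocyte markers summed to 777 and 618 at baseline, then 464 at 2 h and 638 at 8 h, with Lyz2 alone above the median. The 4 platelet markers summed to 859 and 785 at baseline, then 999 at 2 h and 909 at 8 h. The sum was highest at 2 h, as were Rgs1, Rgs2 and Rgs16. Pf4 and Ppbp were highest there too, whereas Gp9 and Itga2b were highest at 8 h. Of the CD8 T cell markers Cd8b1 and of the NK cell markers Eomes was above the median on every array, while no dendritic cell or neutrophil marker passed the median on any. The 2 erythroid markers with a row, Alas2 and Slc4a1, summed to 274 and 240 at baseline, then 218 at 2 h and 377 at 8 h. Slc4a1 stood at 0.67 at 8 h and entered the tested genes only through that array, where it was high. No marker of these lists was called at 2 h or 8 h, against 1.1% and 4% of all tested genes. The part of the markers in the RGS values was not tested. In such bulk samples fewer cells of a type and less RNA per cell cannot be told apart.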

How the data were processed

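RNA of the 4 samples was hybridised to Affymetrix Mouse Gene 1.0 ST arrays. The deposited values are intensity on a linear scale. RMA and Affymetrix Power Tools made them, as the submitters' processing notes name these tools. Versions, genome build and whether the arrays were processed together are not given in the sources used here. Intensities ran from 10.3 to 27543, with array medians of 194.8 and 183 at baseline, then 176.2 at 2 h and 199.5 at 8 h. The 75th percentiles were 669.2 and 729.8 at baseline, then 769.2 at 2 h and 573.5 at 8 h. The 2 h array was thus lowest by median and highest by 75th percentile, and the 8 h array the reverse. Having only 4 arrays limits the precision.

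Log2 was taken with no pseudocount. Of 24922 rows, 21425 had 1 symbol in the platform annotation, and 1399 with several and 2098 with none were left out. Gene identifiers were matched to RefSeq (GRCm38.p6), used for names and gene order. The highest-mean row stood for a gene. The 10699 genes that exceeded an array's median on any array entered the limma fit (limma 3.58.1, R 4.3.3), with a mean per group, Benjamini-Hochberg adjustment, two-sided. The spread came from the baseline arrays (1 residual degree of freedom, prior of 7.46). Tested on simulated data of the 2 h comparison, the fit recovered large changes, but a larger share of its calls was false than the threshold allows. The genes, lists, and the rule for named genes (all RGS genes, neighbours within 1 Mb, the 5 nearest patterns, up to 4 called genes a list or else 2) were chosen with earlier results of these data known. Gnai2, Cxcr4 and Crem were named outside that rule after their values were seen, as were genes named to show a limit of a list. Alternatives were quantile normalization, centring on array medians, other filters on dim genes, an intensity trend in the prior, the mean of a gene's rows and leaving out a baseline array.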

Additional observations from a re-analysis of the deposited data

Results flagged for a closer look

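Rgs1 stood 1.38 above baseline at 2 h and −0.36 from baseline at 8 h on the log2 scale, above both baseline arrays at the first time and below both at the second. Such a turn was found in 28.6% of tested genes. The 8 h minus 2 h difference of −1.74 was among those limma called lower, but Rgs1 was chosen on these values, so it is a description and nothing is read from that call. After quantile normalization the 8 h difference was −0.08.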

How the results depend on the processing

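The gap between Rgs1 and Rgs2 and the other RGS genes was 1.31 at 2 h, −0.28 at 8 h and −1.59 from 2 h to 8 h. It kept its sign under quantile normalization, the mean of a gene's rows and the other Rgs3 row (nearest to 0 at 8 h, −0.12). Centring each array on its median cannot change a gap between genes of the same arrays, so it is no check here. Leaving out either baseline array gave 1.16 to 1.45 at 2 h and −0.43 to −0.13 at 8 h. Without Rgs16 among the other genes, a choice made after seeing the data like that of the other Rgs3 row, it was 1.53 at 2 h and −1.83 from 2 h to 8 h. Of 66 values of single RGS genes under the alternatives, 39 moved by less than the gene's baseline SD and 27 by more. Leaving out either baseline array always moves a value by less than that SD. Those values are among the 39 by construction, and the split is no measure of stability.

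The counts behind the background shares depended on the scaling and the filter. Limma called 118 genes at 2 h (117 higher, 1 lower), 428 at 8 h (70 and 358) and 1311 from 2 h to 8 h (156 and 1155). After quantile normalization these were 441 (332 and 109), 1566 (665 and 901) and 2308 (992 and 1316), and with centred arrays 298, 794 and 2387. With no filter on dim genes 143 were called at 8 h and 415 from 2 h to 8 h, and with the filter at the 60th percentile 255 at 8 h. Genes at least 2-fold different numbered 196 at 2 h, 339 at 8 h and 1005 from 2 h to 8 h, or 144 to 366 and 310 to 528 without one baseline array, and 1617 from 2 h to 8 h with centred arrays. The cause was not tested. Of the counts of called genes per list, 105 stayed within 1.5 times and 15 did not. No paired analysis was possible because the groups share only replicate number 1. Without a baseline array no residual degree of freedom remains, so those are values with no test. Dim genes such as Rgs2 at baseline and Rgs13 limit what the arrays can show.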
